A study of Mus musculus with 2 samples.

Results

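The nuclear genes of the oxidative phosphorylation machinery were followed in embryonic stem (ES) cells of the mouse line E14 (strain 129P2/OlaHsd), after and before differentiation with retinoic acid. Members were all rows of the gene table whose symbol starts like a subunit of respiratory complexes I to IV or of ATP synthase (Ndufa, Ndufb, Ndufc, Ndufs or Ndufv with a number; Sdha to Sdhd; Uqcr; Cox4 to Cox8; Atp5), and 85 of the 34376 rows did so. The rule used names alone and no measured value. Of the 85, 80 encode subunits of complexes I to V and 5 share only the name or act beside a complex. Those 5 are Cox7a2l, a factor of respiratory supercomplexes, Cox4nb, which encodes a subunit of a membrane protein insertion complex of the endoplasmic reticulum and lies beside Cox4i1, Cox4al, which has the same span as Cox4nb, and Atp5s and Atp5sl, now counted among assembly factors.

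The differentiated cells had been plated on gelatin without feeder cells in medium with 10% serum and all-trans retinoic acid at 0.1 µM, and were collected after 4.5 days. The undifferentiated cells grew in 15% serum with leukaemia inhibitory factor at 1000 u/ml on growth-arrested mouse embryonic fibroblasts, which were removed by adsorption to an estimated remainder of under 0.25%. Both cultures were at passage 29, and dead cells were put at about 8% of the differentiated and 2% of the undifferentiated harvest. Each culture gave 1 mRNA library, sequenced single-end for 36 bp in 2 lanes.

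Values are in RPKM, reads divided by model length and by a lane's read total. The value after ± is the lane SD of 1 library (n = 2 lanes), which covers sequencing and read assignment and no variation between cultures. With 1 library in each group there is no test between the conditions. Log2 ratios are log2 of (differentiated RPKM + 1) over (undifferentiated RPKM + 1), a scale that understates differences of weakly expressed genes. The step that 1 read makes in low values implied about 33000000 and 32000000 reads in the differentiated lanes and 37700000 and 36200000 in the undifferentiated lanes. All 6 ES cell markers on the list used here were at least 2-fold lower in differentiated cells (Pou5f1 29.5 RPKM, against 692 RPKM in undifferentiated cells). Of 4 neuron markers at 1 RPKM, 2 were at least 2-fold lower, Stmn2 (14 RPKM, against 248 RPKM) and Tubb3 (14 RPKM, against 37.4 RPKM). The other 2 had higher values, with log2 ratios of 0.89 for Syt1 (1.52 RPKM, against 0.359 RPKM) and 0.34 for Map2 (1.8 RPKM, against 1.22 RPKM). All 7 markers of extraembryonic endoderm were higher (Gata4 123 RPKM, against 1.1 RPKM). Of 7 markers of feeder fibroblasts 6 reached 1 RPKM, and 4 of them were higher in differentiated cells (Col1a1 133 RPKM, against 12.3 RPKM). The other 2 were lower, short of 2-fold. In bulk RNA of this kind, fewer cells of a type and less RNA per cell cannot be told apart.

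Oxidative phosphorylation moves electrons from NADH through complex I, or from succinate through complex II, by way of ubiquinone to complex III, cytochrome c and complex IV, where oxygen is reduced. Complexes I, III and IV pump protons across the inner mitochondrial membrane, and complex V, the ATP synthase, uses their return to make ATP. Most subunits are encoded in the nucleus, several complex IV subunits and the c-ring of ATP synthase come as paralogs, and pluripotent mouse ES cells are known to use both glycolysis and respiration. The subunits encoded in mitochondrial DNA are not analysed here.

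The promoters of these genes are known for sites of the factors NRF1, GABPA, YY1 and ERRα, and 6 are shown here because they include genes that were higher, level and lower in differentiated cells. Picked in this way, the 6 are no sample of the members, and which of them hold letters is not a result about the ratios. The sequences are RefSeq's on GRCm38.p6, 250 bases that end just before the annotated start of the gene, read 5′ to 3′ on the gene's strand, with matches to GCATGCGC (NRF1) or CCGGAAG (GABPA) on either strand in capitals. Cox6a1 (chr5:115348959-115349208, minus strand), Atp5k (chr5:108434400-108434649, minus) and Sdhb (chr4:140961021-140961270, plus) hold NRF1 letters, Cox6a1 and Uqcrh (chr4:116075071-116075320, minus) hold GABPA letters, and Ndufv3 (chr17:31519865-31520114, plus) and Cox7a1 (chr7:30183921-30184170, plus) hold neither in this window.
Cox6a1: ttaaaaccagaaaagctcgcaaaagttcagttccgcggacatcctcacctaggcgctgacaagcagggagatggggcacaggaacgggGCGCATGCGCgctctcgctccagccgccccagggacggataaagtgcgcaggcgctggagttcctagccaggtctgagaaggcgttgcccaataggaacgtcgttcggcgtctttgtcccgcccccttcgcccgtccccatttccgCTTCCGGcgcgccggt
Atp5k: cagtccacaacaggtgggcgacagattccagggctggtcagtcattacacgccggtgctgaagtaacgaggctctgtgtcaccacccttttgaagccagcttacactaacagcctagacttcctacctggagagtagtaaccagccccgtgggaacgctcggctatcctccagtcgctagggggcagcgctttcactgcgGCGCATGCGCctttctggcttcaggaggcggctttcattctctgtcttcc
Sdhb: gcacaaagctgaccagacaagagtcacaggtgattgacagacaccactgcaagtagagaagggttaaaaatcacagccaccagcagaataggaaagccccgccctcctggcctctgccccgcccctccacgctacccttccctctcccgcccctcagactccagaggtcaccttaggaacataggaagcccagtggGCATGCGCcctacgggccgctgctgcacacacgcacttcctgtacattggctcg
Uqcrh: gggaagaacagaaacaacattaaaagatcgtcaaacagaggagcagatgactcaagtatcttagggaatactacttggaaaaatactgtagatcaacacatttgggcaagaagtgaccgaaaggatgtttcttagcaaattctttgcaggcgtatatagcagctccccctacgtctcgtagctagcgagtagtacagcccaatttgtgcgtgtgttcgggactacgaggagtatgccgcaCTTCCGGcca
Ndufv3: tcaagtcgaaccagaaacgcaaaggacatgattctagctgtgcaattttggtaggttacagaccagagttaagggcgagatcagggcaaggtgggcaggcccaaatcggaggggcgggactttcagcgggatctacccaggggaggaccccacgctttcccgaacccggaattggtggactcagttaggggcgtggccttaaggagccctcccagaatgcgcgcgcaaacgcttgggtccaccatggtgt
Cox7a1: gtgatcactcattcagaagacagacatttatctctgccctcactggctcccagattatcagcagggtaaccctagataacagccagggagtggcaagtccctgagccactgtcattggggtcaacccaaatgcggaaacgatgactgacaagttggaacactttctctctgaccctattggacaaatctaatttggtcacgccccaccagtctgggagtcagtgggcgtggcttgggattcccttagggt
In Cox6a1 and Atp5k the capitals of the NRF1 run are GCATGCGC read once on each strand, with overlap.

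Windows from 250 bases before to 50 bases after the start were available for 69 of the 85 members, 75 windows in all. GCATGCGC occurred in 13.3% of the member windows, against 3.52% of 21263 windows of coding genes and 6.06% of 2196 windows of genes that reached 50 RPKM in either library. The YY1 letters AAGATGGC occurred in 16% of member windows, against 3.05% of all windows and 5.92% of those of strongly expressed genes. CCGGAAG was in 21.3% of member windows, against 11.6% of all and 21.3% of strongly expressed genes, the same share as the members. The ERRα letters TCAAGGTCA were in 2.67% of member windows, those of Atp5g3 and Sdhd, against 0.334% of all. GGGCGG, which Sp1 recognises, was in 38.7% of member windows, against 46.2% of all and 68.2% of strongly expressed genes. Median log2 ratios were -0.01 in the 10 members with GCATGCGC and -0.13 in the 59 without it. They were -0.35 in the 11 members with AAGATGGC and -0.09 in the 58 without it. For CCGGAAG the medians were -0.06 in 16 members with it and -0.13 in 53 without. For GGGCGG they were -0.11 in 28 and -0.13 in 41, and for TCAAGGTCA 0.19 in 2 and -0.13 in 67. A match is a description of letters and not of binding.

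Most subunit genes differed little between differentiated and undifferentiated cells. Of the 81 members that reached 1 RPKM in either library, 75 stayed within 2-fold (92.6%), while 72.4% of all 18019 genes at that floor did. One member, Ndufb5, was at least 2-fold higher in differentiated cells, where 19.1% of all genes were. Lower by at least 2-fold were 5 members, 6.17% of the 81, beside 8.46% of all genes. Just inside the threshold lay Ndufv3 (-1.04) and Cox7a1 (-1.06), and just outside it Atp5g1 (-0.93) and Cox7c (-0.92). At 1.5-fold, 5 members were higher and 10 lower, against 31.6% and 20.5% of all genes. Lanes of the differentiated library were all above those of the undifferentiated library in 23 members and all below in 45, against 47.4% and 37.1% of all genes. Among genes that reached 50 RPKM these shares were alike, with 30.3% of members and 32.3% of all genes above, and 59.1% of members and 61.5% of all genes below.

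The median log2 ratio was -0.13 over the 81 members at the floor and 0.12 over all 18019 genes. This order depends on the level at which genes are compared. Among genes that reached 50 RPKM in either library the median was -0.16 for 66 members and -0.35 for all 3395 genes, and the members' median was then the higher one. Dividing by equal RPKM sums, which differ between the libraries (836419 in differentiated and 989605 in undifferentiated cells), shifts all genes to a median of 0.33 and the members to 0.11, so the sign of the members' own median rests on the scaling. The difference between the members' median and that of all genes at the floor was between -0.20 and -0.28 under the 4 scalings and 2 pseudocounts tried.

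**Figure D1:**
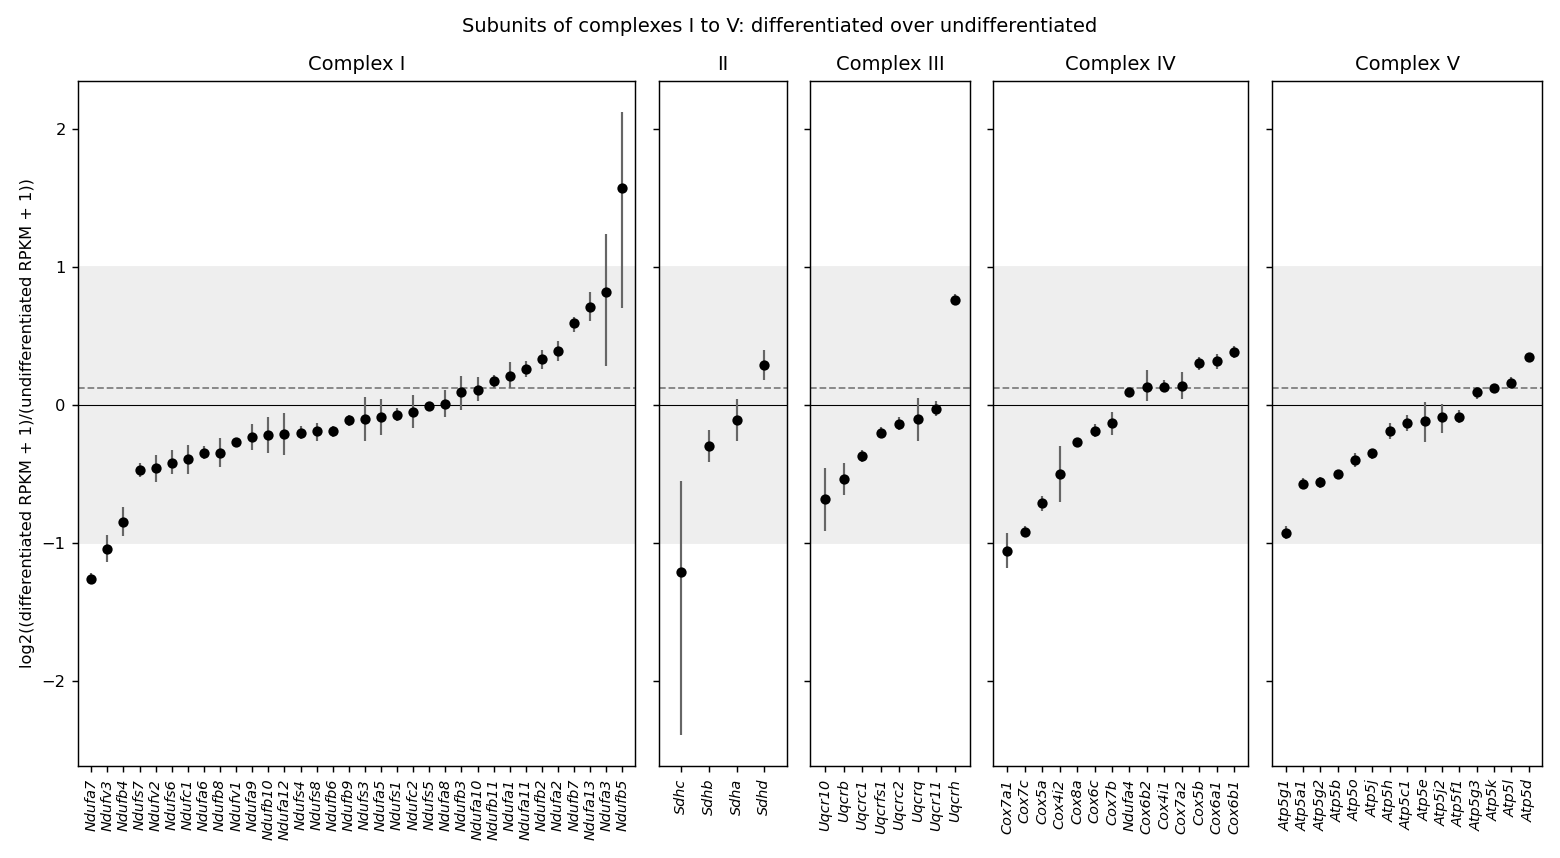
Log2 ratio, differentiated over undifferentiated, of subunit genes of complexes I to V that reached 1 RPKM in either library. Points are ratios of lane means, vertical lines run from the lowest to the highest ratio of any pair of lanes, the grey band marks differences under 2-fold and the dashed line the median of all genes (0.12). Most points lie in the band, and the long lines belong to Ndufb5, Ndufa3 and Sdhc, whose differentiated lanes disagree.

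Summed over all 80 subunit genes, RPKM came to 10112 ± 228 in differentiated cells and 11512 ± 14.4 in undifferentiated cells, a ratio of 0.878. Their share of all RPKM was 1.21% in differentiated cells and 1.16% in undifferentiated cells. Thus the sum was lower and the share slightly higher, because the RPKM of all genes sum to less in the differentiated library. By complex, the ratio of summed RPKM was 0.927 for complex I (2416 ± 66.5 in differentiated and 2606 ± 11.2 in undifferentiated cells), 0.700 for complex II (295 ± 67.1 and 422 ± 5.62), 0.878 for complex III (832 ± 2.69 and 948 ± 7.42), 0.941 for complex IV (3171 ± 80.1 and 3368 ± 22.2) and 0.815 for complex V (3397 ± 17.3 and 4168 ± 5.89). Median log2 ratios of subunits at the floor were -0.10, -0.20, -0.17, -0.02 and -0.13 for complexes I, II, III, IV and V. The medians lay close together, and the lower sum of complex V came largely from its strongest genes, Atp5b and Atp5a1.

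**Figure D2:**
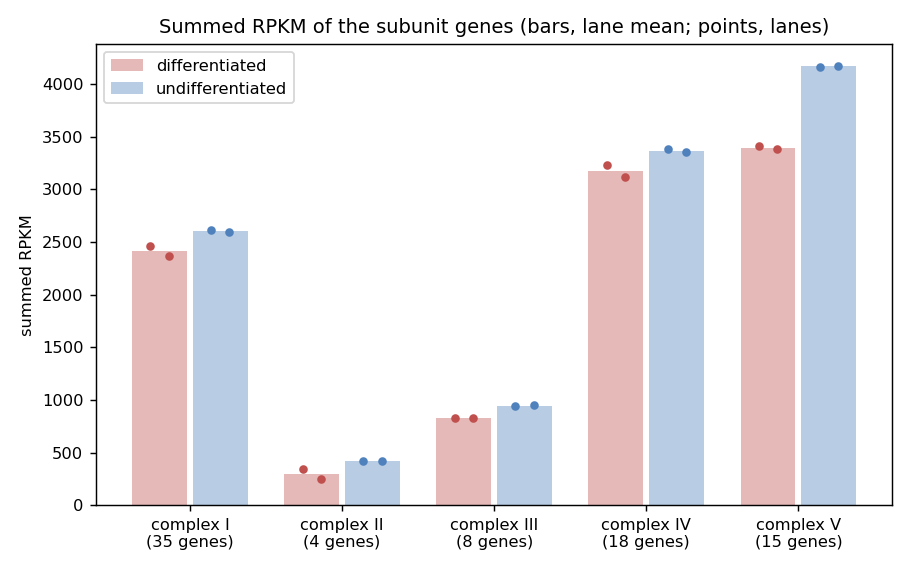
Summed RPKM of the subunit genes of each complex, differentiated (red, left of each pair) and undifferentiated (blue). Bars are lane means and points are the lanes. The largest gap in RPKM is that of complex V, 3397 against 4168, and the lanes of complex II are spread in differentiated cells because of Sdhc.

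Complex I, the NADH dehydrogenase, was represented by 35 genes, 7 for core subunits that carry the flavin or iron-sulfur clusters or form the quinone site and 28 for accessory subunits. The 7 core genes all stayed within 1.5-fold. The lowest log2 ratio among them was -0.47, for Ndufs7, an iron-sulfur subunit next to the quinone site. Ndufv1, the NADH-binding subunit, stood at 58.0 ± 0.297 RPKM in differentiated and 70.4 ± 0.323 RPKM in undifferentiated cells. Of the accessory genes, 4 were past 1.5-fold higher and 3 past 1.5-fold lower. The core set is much the smaller one. The higher accessory genes include Ndufb5 and Ndufa3, whose differentiated lanes lay 2.61- and 1.85-fold apart.

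Ndufa7 (chr17:33961559-33975258, plus strand, mm9), an accessory subunit of the matrix arm, had 103 and 105 RPKM in the differentiated lanes, against 245 and 255 RPKM in the undifferentiated lanes. Its log2 ratio was -1.26, or 2.40-fold higher in undifferentiated cells, and the lanes of each library lay within 1.04-fold of each other. It was the one member past 2-fold under all 8 settings of lane, scaling and pseudocount that were tried, with log2 ratios between -1.43 and -1.02. Rps28, a ribosomal protein gene that starts 115 bp away on the other strand, had a log2 ratio of -0.37. A processed copy of Ndufa7, Gm15694, shared 4.87% of the gene's 36-base windows and was listed at 15.2% of the gene's RPKM in differentiated cells and 12.3% in undifferentiated cells.

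Ndufv3 (chr17:31657060-31668270, plus strand), an accessory subunit at the NADH-binding module, had 59.5 and 67.4 RPKM in the differentiated lanes and 133 and 130.1 RPKM in the undifferentiated lanes, a log2 ratio of -1.04. Its 2 main transcripts moved unequally. The transcript NM_001083891 averaged 44.7 RPKM in differentiated and 116 RPKM in undifferentiated cells, 70.5% and 88.0% of the gene. The other, NM_030087, had 11.8 and 25.1 RPKM in the differentiated lanes, against 15.8 and 15.9 RPKM in the undifferentiated lanes, so its differentiated lanes lie on both sides of the undifferentiated level. Ndufb4, a membrane-arm subunit and the third lowest of the complex, had 47.2 and 52.1 RPKM in the differentiated lanes, against 92.4 and 87.6 RPKM in the undifferentiated lanes, a log2 ratio of -0.85.

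Ndufb5 (chr3:32635912-32650488, plus strand), a membrane-arm subunit, had the highest ratio of all members, 1.57, and it rests on 1 lane. The differentiated lanes held 150.1 and 57.6 RPKM, against 33.8 and 35.1 RPKM in the undifferentiated lanes. The log2 ratio was 2.12 in lane 1 and 0.70 in lane 2, so that all lanes were higher but the 2-fold call was lost with lane 2 alone. Gene values here are sums over transcript models, and the models exchanged: ENSMUST00000156174 was listed at 0 in differentiated cells and held 19.4 RPKM (56.5% of the gene) in undifferentiated cells. NM_025316 averaged 32.4 RPKM in differentiated and 6.15 RPKM in undifferentiated cells, with 46.8 and 18.1 RPKM in the differentiated lanes. Mrpl47, a mitochondrial ribosomal protein gene whose start overlaps that of Ndufb5 by 394 bp on the other strand, had 14.6 and 3.84 RPKM in the differentiated lanes and 8.35 and 7.76 RPKM in the undifferentiated lanes, with the same lane high.

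Ndufa3, a small membrane-arm subunit, was the nearest higher member short of 2-fold. It had 75.9 and 41.0 RPKM in the differentiated lanes, against 33.7 and 31.7 RPKM in the undifferentiated lanes, a log2 ratio of 0.82 that ran from 0.28 to 1.24 over pairs of lanes. Of the members with lanes that agreed, Ndufa13, also known as Grim19, averaged 126 ± 8.95 RPKM in differentiated and 76.2 ± 2.52 RPKM in undifferentiated cells (log2 ratio 0.71), and Ndufb7 averaged 158 ± 7.64 and 105 ± 0.657 RPKM (0.59). These were the accessory genes past 1.5-fold higher whose lanes lay within 1.5-fold of each other. The remaining 28 genes of complex I lay between -0.47 and 0.39, among them Ndufs4, whose loss models Leigh syndrome in mice, at 58.4 ± 2.69 RPKM in differentiated and 67.2 ± 0.0143 RPKM in undifferentiated cells.

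**Figure D3:**
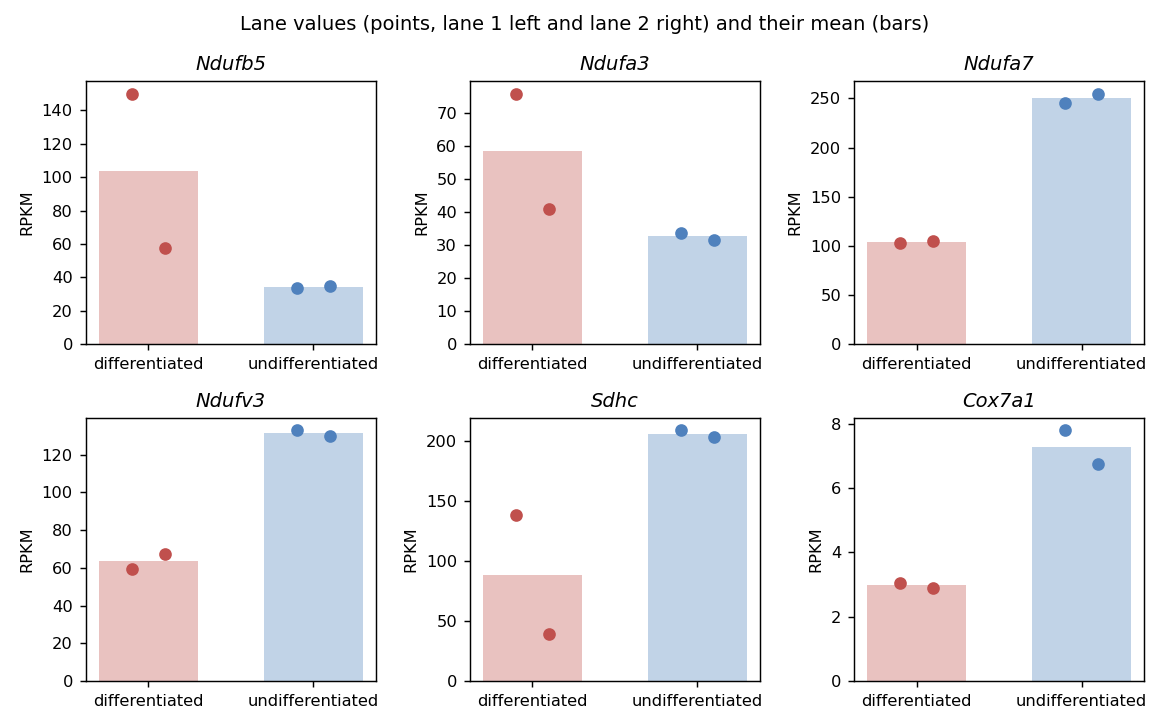
RPKM in each lane (points, lane 1 left and lane 2 right) and their mean (bars) for Ndufb5, Ndufa3, Ndufa7, Ndufv3, Sdhc and Cox7a1, differentiated left and undifferentiated right in each panel. In Ndufb5, Ndufa3 and Sdhc the first differentiated lane is far above the second (150.1 and 57.6 RPKM in Ndufb5), while Ndufa7, Ndufv3 and Cox7a1 have lanes that lie close together.

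Complex II, succinate dehydrogenase, is the one complex made wholly from nuclear genes and also a citric acid cycle enzyme. Its catalytic subunits were little different: Sdha, the flavoprotein, averaged 70.9 ± 4.61 RPKM in differentiated and 76.6 ± 6.37 RPKM in undifferentiated cells, and Sdhb, the iron-sulfur protein, 68.2 ± 3.43 and 84.2 ± 5.41 RPKM. The membrane anchors went apart. Sdhc (chr1:173057296-173080734, minus strand) had 138 and 39.2 RPKM in the differentiated lanes, against 209 and 203 RPKM in the undifferentiated lanes. Both differentiated lanes were below both others, but they differed 3.52-fold, and the log2 ratio of -1.21 ran from -2.39 to -0.55 over pairs of lanes. Sdhd had 71.3 and 64.0 RPKM in the differentiated lanes, against 56.6 and 53.7 RPKM in the undifferentiated lanes, a log2 ratio of 0.29 with no overlap. In lane 1 alone Sdhc was within 2-fold (-0.60), and the summed RPKM of complex II came to 343 and 248 in the differentiated lanes, against 418 and 426 in the undifferentiated lanes.

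Complex III passes electrons from ubiquinol to cytochrome c. Its Rieske iron-sulfur protein, Uqcrfs1, averaged 49.9 ± 1.03 RPKM in differentiated and 57.4 ± 0.992 RPKM in undifferentiated cells. The core proteins Uqcrc1 (118 ± 4.02 and 153 ± 0.706 RPKM) and Uqcrc2 (82.1 ± 0.931 and 90.3 ± 2.89 RPKM) were lower in differentiated cells by log2 ratios of -0.37 and -0.14. The small accessory subunits spread more widely. Uqcr10 was lowest, with 93.9 and 73.5 RPKM in the differentiated lanes, against 129 and 139 RPKM in the undifferentiated lanes (-0.68). A row named RP23-280J3.4 at the same locus holds further transcripts now assigned to Uqcr10, with 92.4 and 110.4 RPKM in the differentiated lanes, against 90.6 and 88.1 RPKM in the undifferentiated lanes, and the sum of both rows had a log2 ratio of -0.27. Uqcrb, a ubiquinone-binding protein, had a log2 ratio of -0.54.

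Uqcrh, the hinge protein at the cytochrome c docking site, was the highest of complex III, with 118 and 115 RPKM in the differentiated lanes, against 67.3 and 69 RPKM in the undifferentiated lanes, a log2 ratio of 0.76. Lrrc41, whose start lies 197 bp away on the other strand, was higher too, at 28 ± 2.47 RPKM in differentiated and 11.9 ± 2.1 RPKM in undifferentiated cells (1.17). An unnamed row, ENSMUSG00000078238, of 312 bp lies inside Uqcrh on the other strand and had 148 and 145 RPKM in the differentiated lanes, against 31.2 and 29.8 RPKM in the undifferentiated lanes (2.23). The library kit does not record the strand, so reads from any exon bases that this row and Uqcrh share cannot be told apart. Whether the 312 bp fall in exons of Uqcrh was not examined. Both processed copies of Uqcrh with a row, Uqcrh-ps1 and Uqcrh-ps2, had log2 ratios of 0.63 and 0.74.

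Complex IV, cytochrome c oxidase, included Cox7b, the strongest member after Atp5b, with 653 and 588 RPKM in the differentiated lanes, against 683 and 678 RPKM in the undifferentiated lanes (-0.13). Cox6a1, the general form of a small regulatory subunit, had 520.5 and 500.4 RPKM, against 417 and 403 RPKM (0.32). Cox4i1, the general form of the largest nuclear subunit, had 469.9 and 475 RPKM, against 441 and 419.5 RPKM (0.13). Cox8a, the general form of another small subunit, was lower (-0.27). Of these general forms, Cox6a1 and Cox4i1 were thus somewhat higher in differentiated cells and Cox7b and Cox8a somewhat lower, with no overlap of lanes, although Cox4i1 turned to -0.04 under trimmed mean scaling and Cox7b to 0.11 at equal RPKM sums. The highest ratio in the complex was that of Cox6b1, with 162 and 163 RPKM in the differentiated lanes, against 121 and 128 RPKM in the undifferentiated lanes (0.38). Cox5b, at 333 ± 9.70 and 271 ± 5.94 RPKM, was also higher. Among subunits with a single form, Cox7c had 229 and 233 RPKM in the differentiated lanes, against 429 and 445 RPKM in the undifferentiated lanes, a log2 ratio of -0.92 and 1 of the 2 nearest short of 2-fold on the lower side. Cox5a had 188 ± 7 and 309 ± 4.91 RPKM (-0.71). Cox6b1 and Cox7c, parts of 1 enzyme, thus differed by more than 1 log2 unit, with lanes close together in both genes.

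Cox4nb (chr8:123177814-123192012, minus strand), which the rule takes by name, starts 177 bp from Cox4i1 on the other strand. It had 37.8 and 37.7 RPKM in the differentiated lanes, against 78.3 and 82.0 RPKM in the undifferentiated lanes, a log2 ratio of -1.07, beside 0.13 for Cox4i1. The row Cox4al, with the same span as Cox4nb, averaged 3.57 ± 0.849 and 5.06 ± 0.694 RPKM. Atp5s had a log2 ratio of -0.18, Atp5sl of -0.58 and Cox7a2l of -0.06.

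Several complex IV subunits have a second form made in few tissues, and all of these but Cox6b2 were weak in both libraries. Cox7a1, the heart and skeletal muscle form, was the sole tissue form past 2-fold. It had 3.05 and 2.89 RPKM in the differentiated lanes, against 7.79 and 6.74 RPKM in the undifferentiated lanes, a log2 ratio of -1.06. Its share of the summed RPKM of Cox7a1 and Cox7a2 was 4.92% ± 0.257 in differentiated cells and 12.3% ± 1.19 in undifferentiated cells. Cox7a2, the general form, had 61.1 and 53.5 RPKM in the differentiated lanes, against 51.5 and 52.1 RPKM in the undifferentiated lanes, so the COX7A sum was nearly level (60.3 and 59.1 RPKM). Of 9 striated muscle markers, 7 reached the floor, 3 higher and 1 lower in differentiated cells. Higher were the cardiac actin gene Actc1 (43.2 ± 3 RPKM in differentiated and 0.823 ± 0.201 RPKM in undifferentiated cells) and the cardiac myosin heavy chain genes Myh6 (7.51 ± 0.169 and 1.63 ± 0.277 RPKM) and Myh7 (6.97 ± 0.693 and 1.46 ± 0.343 RPKM). Lower was Myl2, with 0 and 0.295 RPKM in the differentiated lanes, against 4.35 and 0.217 RPKM in the undifferentiated lanes, which rests on 1 lane. Ckm, the muscle creatine kinase, and Tnnt2 stayed below the floor. The summed RPKM of the list was 719 and 715 in the differentiated lanes, against 361 and 354 in the undifferentiated lanes, most of it from Acta1 (653 ± 7.27 and 348 ± 0.727 RPKM). The part of such cells in the Cox7a1 level was not tested.

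Cox6b2, known as the testis form, was the best expressed of these tissue forms. It had 30.8 and 31.7 RPKM in the differentiated lanes, against 30.3 and 26.6 RPKM in the undifferentiated lanes (log2 ratio 0.13), and made up 16.2% ± 0.238 of COX6B in differentiated cells and 18.6% ± 2.01 in undifferentiated cells. That difference in share is near the spread of the undifferentiated lanes. The male germ cell genes Prm2, Acr and Odf1 were at or near 0, between 0 and 0.117 RPKM, in both libraries. Ddx4 had 8.64 RPKM in differentiated and 7.34 RPKM in undifferentiated cells, and Ldhc, a testis lactate dehydrogenase, 0.313 RPKM and 1.32 RPKM (-0.82). The 5 of 8 germ cell genes with a row summed to 8.55 and 9.7 RPKM in the differentiated lanes, against 7.88 and 9.74 RPKM in the undifferentiated lanes. The part of such cells in the Cox6b2 level was not tested. Cox4i2, the lung form that low oxygen is known to induce, had 1.83 and 2.13 RPKM in the differentiated lanes, against 3.61 and 2.85 RPKM in the undifferentiated lanes, a log2 ratio of -0.50. Its 2 transcript models differed: ENSMUST00000010020 averaged 0.113 RPKM in differentiated and 1.59 RPKM in undifferentiated cells, and ENSMUST00000109821 averaged 1.87 and 1.64 RPKM.

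The 4 members below the floor were tissue forms too. Cox6a2, of heart and muscle, had 0.163 and 0 RPKM in the differentiated lanes, against 0.218 and 0.0359 RPKM in the undifferentiated lanes. Cox7b2, of testis, had 0.135 and 0.349 RPKM, against 0.296 and 0.309 RPKM, and Cox8c, also of testis, 0.163 and 0.168 RPKM, against 0.285 and 0.286 RPKM. Cox8b, of muscle and brown fat, was listed at 0 in both differentiated lanes and in the first undifferentiated lane, and at 0.129 RPKM in the second. Their general partners Cox6a1, Cox7b and Cox8a held over 99.8% of each family in both libraries; Cox8a had 215 and 218 RPKM in the differentiated lanes, against 261 and 260 RPKM in the undifferentiated lanes.

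**Figure D4:**
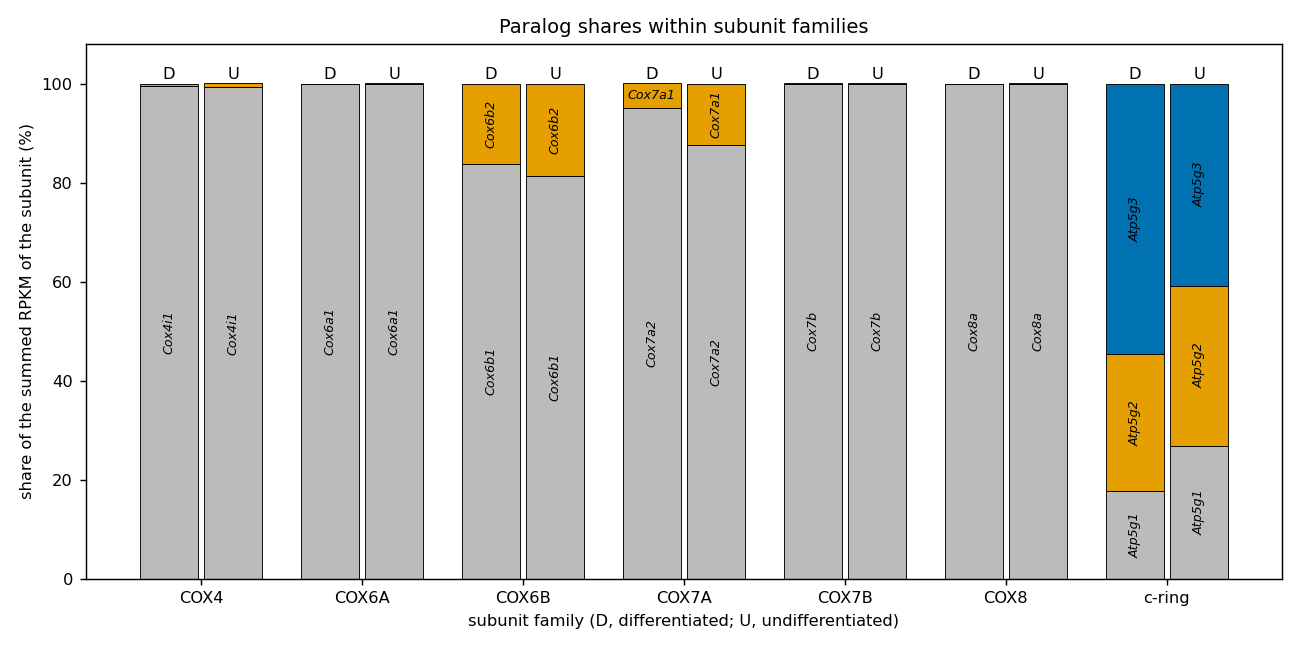
Share of each paralog in the summed RPKM of its subunit family, differentiated (D) left and undifferentiated (U) right of each pair, from lane means. Tissue forms are visible in COX6B and COX7A alone, and Atp5g3 takes 54.7% of the c-ring sum in differentiated cells and 40.8% in undifferentiated cells.

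Complex V showed its clearest difference in the c-ring, the rotor through which protons pass. Atp5g1, Atp5g2 and Atp5g3 encode the same mature protein with different import peptides, so they are alternative sources of 1 subunit. Atp5g1 (chr11:95930166-95937008, minus strand) had 102 and 98.9 RPKM in the differentiated lanes, against 195 and 189 RPKM in the undifferentiated lanes (-0.93, the lowest ratio of the complex). Atp5g2 had 153 and 159.8 RPKM, against 230.1 and 233 RPKM (-0.56). Atp5g3 had 316 and 305 RPKM, against 296 and 288 RPKM (0.09). Thus Atp5g1 and Atp5g2 were lower and Atp5g3 slightly higher, with no overlap of lanes in any of them, though the sign of Atp5g3 turned under 3 of the 4 scalings (-0.08 to -0.04). The c-ring sum was 567 RPKM in differentiated and 715 RPKM in undifferentiated cells. Atp5g1 made up 17.7% ± 0.269 of it in differentiated cells and 26.9% ± 0.287 in undifferentiated cells, Atp5g2 27.6% ± 1.1 and 32.3% ± 0.605, and Atp5g3 54.7% ± 0.828 and 40.8% ± 0.318. The 3 genes shared no identical 36-base window with one another, but Atp5g1 shared 67% and Atp5g2 all of its windows with processed copies, and Atp5g3 none. With the RPKM of the copies' rows added to each gene, Atp5g1 made up 26.3% in differentiated and 35% in undifferentiated cells, Atp5g2 37.5% and 40.4%, and Atp5g3 36.3% and 24.5%. The levels of the shares thus depend on where the reads of the copies belong. In both sums the share of Atp5g3 was higher in differentiated than in undifferentiated cells. The second sum is no independent check, because a gene and its copies can share reads and the main copies had log2 ratios near those of their genes.

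In the F1 head, where ATP is made, the subunits did not move together. Atp5b, the catalytic β subunit and the strongest member, averaged 769 ± 10.7 RPKM in differentiated and 1088 ± 0.709 RPKM in undifferentiated cells (-0.50). Atp5a1, the α subunit, averaged 406 ± 7.93 and 601 ± 10.1 RPKM (-0.57). The central stalk subunits were closer or higher: Atp5c1 229 ± 8.86 and 251 ± 4.76 RPKM, Atp5e 129 ± 14.2 and 140.4 ± 4.70 RPKM, and Atp5d, the highest ratio of the complex, 176 and 178 RPKM in the differentiated lanes, against 138 and 138 RPKM in the undifferentiated lanes (0.35). The assignment of Atp5b reads to models also differed, since the full-length NM_016774 held 77.3% of the gene's RPKM in differentiated cells and 99.5% in undifferentiated cells. The 4 peripheral stalk genes, Atp5f1, Atp5h, Atp5j and Atp5o, ran from -0.40 to -0.09, and the 3 membrane accessory genes Atp5j2, Atp5k and Atp5l from -0.09 to 0.16.

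Many members are short and have processed copies, intronless pseudogenes made from their mRNA, whose reads cannot always be placed. A processed copy was counted where a GENCODE vM21 pseudogene transcript matched the member's transcript at 90% identity or more over at least 100 bases. By that measure 34 of the 84 members with a transcript in that annotation had 96 copies, 59 of them with a row in the deposited tables. The median transcript was 609 bases in members with a copy and 751 bases in the 50 without. Atp5l, an accessory subunit, had 16 copies, 7 with a row, and those rows summed to 569.9 RPKM in differentiated and 559.9 RPKM in undifferentiated cells, more than the gene's own 162 ± 4.15 and 145 ± 1.01 RPKM. Median log2 ratios, members below the floor included, were -0.11 in the 34 members with a copy and -0.13 in the 50 without.

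A stretch of 60 coding bases shows what separates a gene from its copy. Positions count from the first base of the gene's start codon, and capitals mark the bases at which the pair differs, in the gene and in the copy.
Atp5g1: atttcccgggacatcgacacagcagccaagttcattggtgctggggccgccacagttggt
Gm10039: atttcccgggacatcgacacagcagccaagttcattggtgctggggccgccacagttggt
Atp5g1 is on chromosome 11 and its copy Gm10039 also on chromosome 11, and they had 0 differences at positions 175 to 234. The copy was listed at 98.7 RPKM in differentiated and 180.1 RPKM in undifferentiated cells, 98.1% and 93.7% of the gene. Its row was found by transcript ID, and the deposited row of the name Gm10039 is another copy, on chromosome 15, now called Gm6612 (11.9 and 20.8 RPKM).
Ndufa7: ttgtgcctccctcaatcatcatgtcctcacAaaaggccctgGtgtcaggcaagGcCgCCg
Gm15694: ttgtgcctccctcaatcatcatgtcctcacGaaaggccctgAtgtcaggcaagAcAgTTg
Ndufa7 on chromosome 17 and Gm15694 on chromosome 16 differed at 6 of 60 bases at positions 188 to 247. Here the copy stood at 15.8 RPKM in differentiated and 30.8 RPKM in undifferentiated cells, with a log2 ratio of -0.92 beside -1.26 for the gene.

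Over the 50 copies at the floor, from 30 members, the share of the gene's 36-base windows found in the copy and the copy's RPKM as a fraction of the gene's rose together (Spearman's rho 0.93 across copies in the undifferentiated library). The log2 ratios of copy and gene were also alike, with Pearson's r 0.86 and rho 0.86 across copies, and 44 of 50 copies lay within 0.25 of their gene. Copies of 1 gene, and a gene and its copies, can share the same reads, so these points are not independent. At the far end, Gm10231 held every window of the Atp5g2 transcript and was listed at 101% of that gene's RPKM in differentiated cells and 104% in undifferentiated cells. Gm12338, a copy of Cox7c, stood at 111% in both libraries, with a log2 ratio of -0.91, and the pseudogene BC002163 on chromosome 16 at 288% and 245% of the Ndufs5 row. For such pairs the level of either row is uncertain. Their log2 ratios were close in Atp5g1 (-0.93) and Gm10039 (-0.86). The Ndufs5 row was level (-0.01, from -0.03 to 0.01 over pairs of lanes), beside 0.22 for BC002163. Over all 50 copies 43 had the sign of their gene. The RefSeq mRNA of Ndufs5 itself lies in a second row named BC002163, at the Ndufs5 locus on chromosome 4, with 31.9 ± 1.15 RPKM in differentiated and 27.3 ± 2.9 RPKM in undifferentiated cells. Added to the Ndufs5 row, it gave a log2 ratio of 0.12.

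A few copies did not follow. Gm15528 had a log2 ratio of -1.17 beside -0.09 for Atp5f1, a peripheral stalk subunit, and shared 0.446% of its windows. Gm16459 was at -0.96 beside -0.39 for Ndufc1 and shared none, and Gm4660 at -0.24 beside -0.93 for Atp5g1, with 1.07% shared. All 3 were listed at under 7% of their gene. Without the members that have a copy, 1 member was past 2-fold higher and 3 lower, since Ndufa7 and Sdhc left the count.

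**Figure D5:**
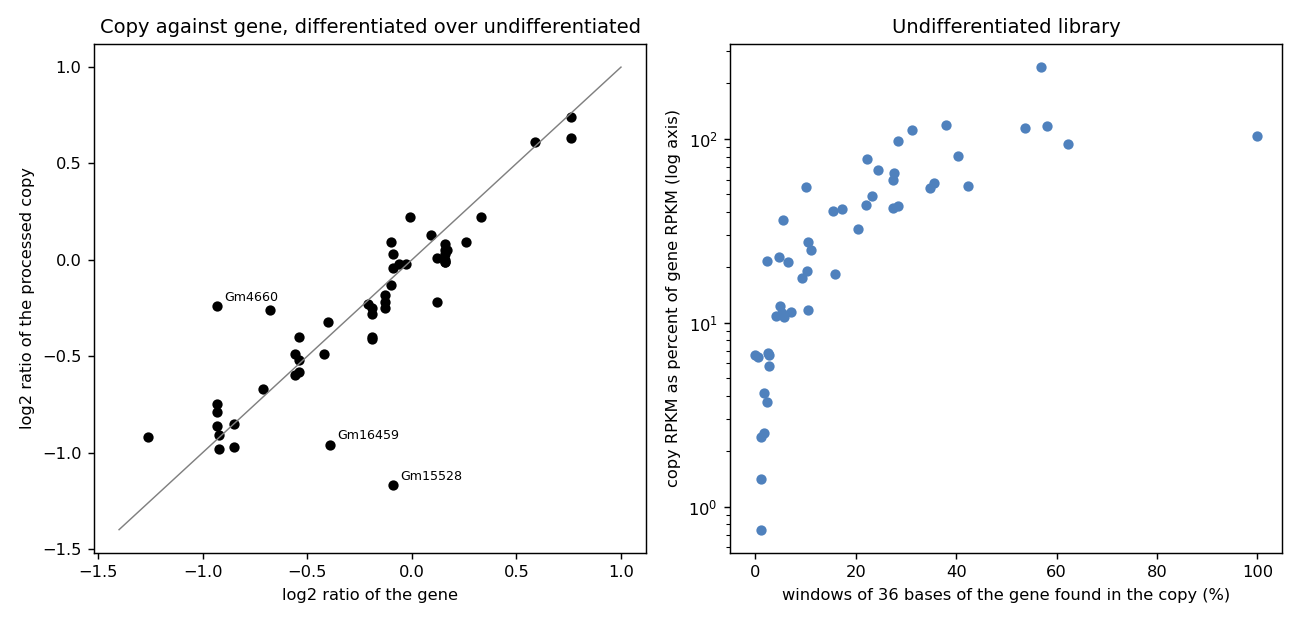
Left, log2 ratio of each processed copy (vertical axis) against that of its gene (horizontal axis), with the line of equality and the names of copies over 0.5 away from it. Right, RPKM of the copy as a percent of its gene in the undifferentiated library (log axis) against the percent of the gene's 36-base windows found in the copy. Points on the left follow the line (44 of 50 within 0.25), and points on the right rise with identity.

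Members often start head to head with another gene. Counted were 22 pairs with starts within 1000 bp on opposite strands. Their partners were at the floor, have a gene symbol and are no members. Of these partners 1 was at least 2-fold higher in differentiated cells and 2 at least 2-fold lower, beside 19.1% and 8.46% of all genes. The higher one was Lrrc41 beside Uqcrh. The lower ones were Gabpa (11.4 ± 0.773 RPKM in differentiated and 24.8 ± 0.328 RPKM in undifferentiated cells), which faces Atp5j (-0.35), and Wdr77 (36.7 RPKM and 75 RPKM, log2 ratio -1.01), which faces Atp5f1 (-0.09). Gene and partner had the same sign in 17 of these 22 pairs, and in 18 of 26 once predicted genes, unnamed rows and pairs of members were counted too. Those include Cox4i1 (0.13) with Cox4nb (-1.07), and Uqcrb (-0.54) with Gm10767 (0.08). The agreement of sign in head-to-head pairs of other genes was not computed, so these counts have no background. Shared regulation of the pairs was not tested. Ndufs1, the largest core subunit of complex I, and Eef1b2, a translation elongation factor, start 2 bp apart and had log2 ratios of -0.07 and -0.73.

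The other genes of the pathway were read from lists written with earlier results of these data known. Of assembly factors, 2 of 12 at the floor for complex I were 2-fold lower, Ndufaf4 (7.62 ± 0.342 RPKM in differentiated and 19.3 ± 5.72 RPKM in undifferentiated cells) and Nubpl, which inserts iron-sulfur clusters (4.18 ± 0.785 and 10.5 ± 0.0720 RPKM), and none higher. In complex IV 1 of 16 was higher, Surf1 (9.64 ± 0.247 and 3.55 ± 0.123 RPKM), and in complex V 1 of 3, Tmem70 (16.5 ± 0.449 and 7.27 ± 0.222 RPKM). None of 4 factors of complex II or 5 of complex III passed 2-fold. The other extremes of these lists were log2 ratios of 0.72 for Tmem126b (complex I), 0.77 for Sdhaf1 and -0.36 for Sdhaf4 (complex II), 0.13 for Lyrm7 and -0.62 for Uqcc2 (complex III), -0.74 for Sco1 (complex IV) and -0.25 for Atpaf1 (complex V). Counts of this size sit beside a background of 19.1% higher and 8.46% lower.

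Among electron carriers and nucleotide exchange, paralogs differed in direction or size. Slc25a4, the adenine nucleotide translocator of heart and muscle, had 369 and 372 RPKM in the differentiated lanes, against 124 and 131 RPKM in the undifferentiated lanes (1.53). Slc25a5, the translocator of dividing cells, averaged 267 ± 2.44 and 530.0 ± 14.7 RPKM (-0.99). Cyct, the testis cytochrome c, had 1.57 and 0.905 RPKM in the differentiated lanes, against 5.62 and 7.17 RPKM in the undifferentiated lanes (-1.73), while Cycs, the somatic form, averaged 124 ± 4.82 and 163 ± 4.57 RPKM. Of the 16 genes of this list at the floor, 1 was higher and 1 lower by 2-fold, beside 19.1% and 8.46% of all genes. Among subunit genes that the naming rule misses, Ndufa4l2, a paralog of the complex IV subunit Ndufa4, had 0.399 and 0.483 RPKM in the differentiated lanes, against 34.8 and 36.5 RPKM in the undifferentiated lanes (-4.67). Ndufa4 itself averaged 178 ± 1.48 and 168 ± 3.82 RPKM. Cyc1, the cytochrome c1 of complex III, averaged 104 ± 6.46 and 158 ± 1.67 RPKM (-0.60), and Usmg5, an accessory subunit of ATP synthase, 126 ± 12.7 and 91.2 ± 12.9 RPKM (0.46).

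Of 21 genes of the citric acid cycle and pyruvate dehydrogenase, 1 was 2-fold higher and 2 lower, beside 19.1% and 8.46% of all genes. All 3 encode kinases that restrain pyruvate dehydrogenase. Pdk1 had 10.2 and 11.2 RPKM in the differentiated lanes, against 90.9 and 61.2 RPKM in the undifferentiated lanes (-2.72). Pdk4 averaged 1.24 ± 0.630 and 4.46 ± 0.461 RPKM (-1.28), and Pdk2 6.21 ± 1.18 and 1.99 ± 0.507 RPKM (1.27). Of the enzymes, Idh3b was nearest to 2-fold, at 74.1 ± 1.08 and 36.9 ± 0.361 RPKM (0.99). Of 16 genes of mitochondrial biogenesis at the floor, 1 was higher, Esrra, an estrogen-related receptor (23.2 ± 2.36 and 9.23 ± 0.666 RPKM, log2 ratio 1.24). Lower were Pprc1, a coactivator related to PGC-1 (23.6 ± 0.385 and 69.4 ± 5.13 RPKM, -1.52), and Gabpa (-1.05). The counts of this list sit beside the same 19.1% and 8.46% of all genes. Nrf1 averaged 19.5 ± 2.33 RPKM in differentiated and 25.2 ± 1.11 RPKM in undifferentiated cells. Yy1 averaged 48.3 RPKM in differentiated and 56.5 RPKM in undifferentiated cells (-0.22). The genes of NRF1, GABPA, YY1 and ERRα ran from -1.05 to 1.24, beside a members' median of -0.13. Whether the levels of these factors bear on the members was not tested.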

How the data were processed

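Poly(A) RNA of 1 differentiated and 1 undifferentiated culture was sequenced on 2 lanes each, per the labels' protocols. The authors deposited RPKM per lane and library for genes, promoters and transcripts. Their headers name no unit, which was read from the values: in single-exon genes, 90.9% to 91.9% of low values were whole reads within 0.05 read. The build is mm9, per the submitters' processing notes. Aligner, counter, annotation and handling of reads that match several loci: not given in the sources used here. A gene's value is the sum over its transcripts, and the deposited averages equal the lane means.

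Ratios took lane means, a pseudocount of 1 RPKM and a floor of 1 RPKM in either library (Python 3.11.15, pandas 2.3.3, numpy 2.4.6). Alternatives were other pseudocounts, scalings, floors, single lanes and sets of rows. The ratio and scaling code was tested on simulated data. No count test was run, since the values are RPKM. Lanes are runs of 1 library and are not replicates. Members and lists were chosen with earlier results of these data known. Named in every lane were members past 2-fold, the highest and lowest of each complex, isoform families, members with lanes over 1.5-fold apart and the 2 on each side of the 2-fold threshold; from pathway lists, genes past 2-fold and the extremes. Of the ES cell, endoderm and fibroblast markers, all but 1 example each are given as counts. Genes named outside the rule (head-to-head partners, copies, rows at a member's locus, Slc25a5, Cycs, Cyc1, Idh3b, Nrf1, Yy1, Acta1, Ckm, Tnnt2 and the germ cell genes) were chosen after their values were seen. Processed copies were found with blastn 2.17.0 against GENCODE vM21 transcripts, and were matched to rows of the tables by ID or symbol. Promoter windows are RefSeq's on GRCm38.p6, and no coordinates were moved between builds. One subunit gene is counted in all totals but not reported or plotted individually here.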

Additional observations from a re-analysis of the deposited data

How the results depend on the processing

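The median log2 ratio of members (-0.13) was -0.15 in either lane, -0.26 after centring on all genes or upper quartile scaling, -0.30 after trimmed mean scaling, 0.11 at equal RPKM sums, -0.13 with a pseudocount of 5 RPKM, -0.16 at a floor of 50 RPKM, -0.12 over rows that encode subunits, -0.18 without genes with a processed copy and -0.09 from the top transcript. Members 2-fold higher (1) were 3 at equal RPKM sums, 2 in lane 1, 0 in lane 2 and 0 with lanes within 1.5-fold. Members 2-fold lower (5) were 2 with a pseudocount of 5 RPKM, 8 after trimmed mean scaling, 1 at equal RPKM sums, 3 in lane 2 and 3 without copied genes. Higher members were thus 16.7% of those past 2-fold as deposited and 75% at equal RPKM sums (all genes 69.3% and 80.4%). The span of complex medians (0.18) was 0.13 with no floor, 0.29 at a floor of 5 or of 50 RPKM, 0.37 without copied genes and 0.31 from the top transcript. Pathway genes 2-fold higher (5) were 1 with a pseudocount of 5 RPKM, 8 at equal RPKM sums and 1 at a floor of 50 RPKM. Those lower (8) were 3 with a pseudocount of 5 RPKM, 2 at a floor of 50 RPKM and 5 with lanes within 1.5-fold. At equal RPKM sums Nubpl and Gabpa fell short of 2-fold lower. From the top transcript, the share difference in percentage points (differentiated minus undifferentiated) was 0.0449 for Cox4i2, against -0.327 as reported, -0.0449 for Cox4i1, against 0.327, -9.7 for Atp5g1, against -9.14, and 14.5 for Atp5g3, against 13.9. With the rows of processed copies added, an alternative chosen after seeing the data like that of the second rows of Uqcr10 and Ndufs5, it was -8.76 for Atp5g1, -2.99 for Atp5g2, against -4.76, and 11.7 for Atp5g3. Of 135 such recomputed values, 97 moved by no more than the lane SD or stayed within 1.5 times the reported count. The 135 include single-lane values. A reported share lies about midway between its lanes, so its single-lane values fall within the lane SD by construction. The count is therefore no measure of robustness. The sign held under all 8 settings of lane, scaling and pseudocount in 45 of 85 members. The causes of these moves were not tested. No paired analysis was possible because each group has 1 library.

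With 1 library in each group, nothing here separates the effect of differentiation from a difference between these cultures. Depth of about 32000000 to 37700000 reads a lane leaves the forms under 1 RPKM at a few reads. Reads of 36 bp limit the placement between genes and processed copies, and between transcripts of 1 gene.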
